A study of Homo sapiens with 6 samples.

Results

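Nuclear receptors are transcription factors, many of which are switched on or off by small lipid-soluble ligands such as bile acids, fatty acids, retinoids, steroids, thyroid hormone and vitamin D. Most bind DNA as dimers at copies of a short half-site, many of them with a retinoid X receptor as the partner, and they recruit coactivators or corepressors that open or close chromatin. In the liver they set bile acid, lipid, glucose and drug metabolism, and several of them vary with the time of day. The nuclear receptor genes described here were 37 named receptors whose symbols are rows of a table of read counts with 16720 named rows. HNF4A, another nuclear receptor, was left out of the list. The 37 were picked by name and not by a rule on measured values, but with earlier results of these data known.

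The counts came from RNA of Hep3B cells, an established human line derived from a hepatocellular carcinoma. One group of 3 libraries, sgControl, was labelled as wild type, and the other group of 3 libraries, sgRFX6, was labelled as an RFX6 knockout. The count columns of the sgRFX6 group are all named sg3, taken here as the single guide of that name in the study's methods. RFX6 is a transcription factor of the regulatory factor X family, best known from the pancreatic islet. Per the study's methods, the knockout cells received a lentiviral CRISPR vector, were selected with puromycin and were grown on as clones from single cells, and whether the control cells were also cloned is not stated. An effect of the knockout, an effect particular to this guide and a difference between clones therefore cannot be told apart. Nothing in the labels says that the 3 libraries of a group came from separate cultures, so the p-values measure the spread between these libraries, which may be technical. Levels are given in CPM, which are read counts scaled to a common effective library size, and log2 fold changes are those of sgRFX6 over sgControl from edgeR's quasi-likelihood test, with p-values adjusted over all 12839 genes tested and a threshold of 0.05.

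The libraries held between 16730386 and 25070793 counts, and 3 counts, the floor used here, corresponded to between 0.122 and 0.189 CPM. RFX6 itself stood at 5.64, 5.83 and 7.34 CPM in the sgControl libraries and at 3.43, 3.71 and 3.5 CPM in the sgRFX6 libraries. The groups did not overlap, yet the log2 fold change of -0.82 (SE 0.26) missed the threshold (edgeR adjusted p = 0.142). The sgControl library 2 and the sgRFX6 library 3 stood apart from the other libraries of their groups: the chi-square per degree of freedom over genes was 68.7 to 117 for pairs with either of them and 16.2 and 17.9 for the remaining pairs. The rank correlation of gene-wise deviations with GC content ran from -0.85 in sgRFX6 library 3 to 0.72 in sgRFX6 library 2. Of 10 hepatocyte markers, all were detected, and their summed level was between 187 and 237 CPM in sgControl and between 135 and 180 CPM in sgRFX6. AFP and AHSG, fetal and secreted plasma protein genes, rose, and FGB, a fibrinogen chain, fell, so that 3 of the 10 were called, while 7 of the 10 had a positive log2 fold change (median 0.29). Albumin, the main secretory product of hepatocytes, was at most 32.1 CPM in any library. Of the other cell types' markers, 3 of 5 tested fibroblast genes were called lower, the collagens COL1A1, COL1A2 and COL3A1 (summed list 51.2 to 60.9 against 21.4 to 56.2 CPM). Of 6 tested leukocyte genes 3 had a positive and 3 a negative change. Among them 1, ITGAM, was called higher (summed list 76.8 to 164 against 71.2 to 112 CPM). The shares called were 30% of hepatocyte, 60% of fibroblast and 16.7% of leukocyte genes tested, against 3.74% of all genes tested. The endothelial list had 1 tested gene, which was not called, and the other 5 of its 6 genes were too low to test. The part of these lists in the receptor values was not tested.

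Of the 37 receptors, 29 passed the filter on low counts, and 2 of these 29 (6.9%) were called, against 3.74% of all genes tested. NR1H4, the bile acid receptor FXR, was higher in sgRFX6, as were 1.92% of all genes, and NR4A1, the immediate early receptor Nur77, was lower, as were 1.81%. The receptors' share rests on 2 genes, and its difference from that of all genes was not tested. The fitted change was positive for 15 receptors and negative for 14, and its median was 0.01 on the log2 scale against 0.02 over all genes. For 22 of the 29 the change was smaller than 0.5 on the log2 scale in either direction. The groups did not overlap for 7 of the 29 (24.1%), which is close to the 23.1% seen among all genes tested. These were NR1H4, NR2F2 and PPARG on the higher side, against 12% of all genes, and NR4A1, NR6A1, PPARD and RARB on the lower side, against 11.2%. An unadjusted p under the threshold was found for 7 receptors, against 15.6% of all genes tested.

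**Figure D1:**
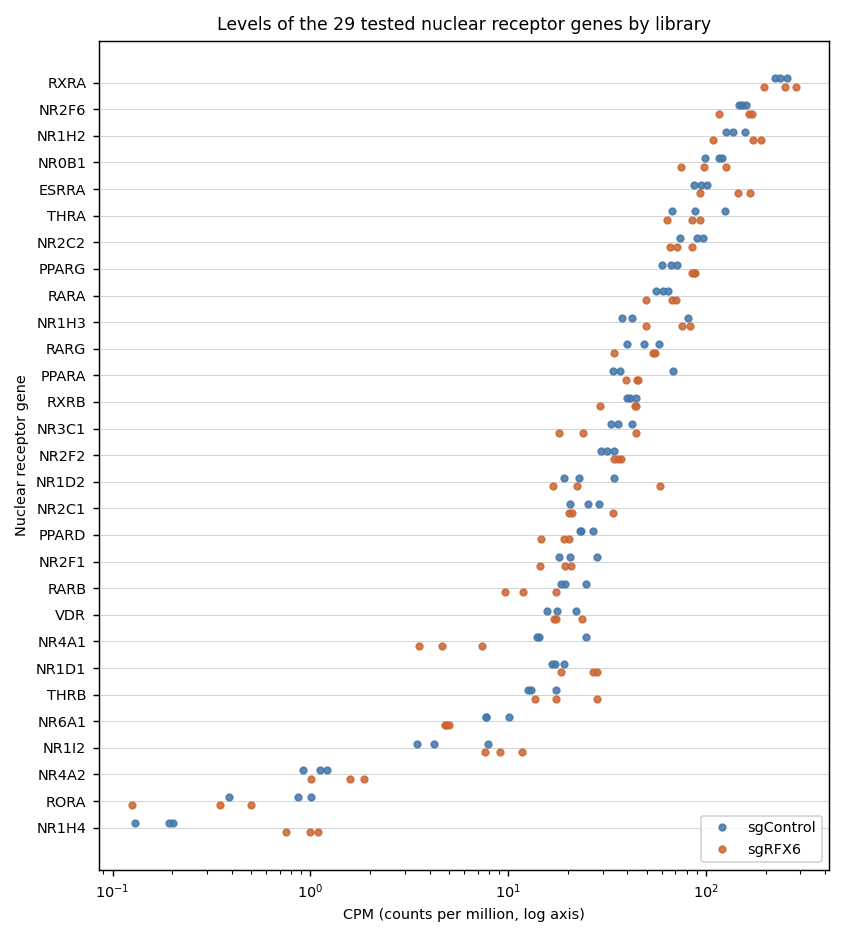
CPM of the 29 tested nuclear receptor genes (rows) in each library on a log axis, 1 point per library, blue for sgControl and orange for sgRFX6. Most receptors have points of both groups mixed together, and NR1H4 (0.130 to 0.203 against 0.754 to 1.09 CPM) and NR4A1 (14.0 to 24.7 against 3.52 to 7.4 CPM) show separated groups. The groups also do not overlap for NR2F2, PPARG, NR6A1, PPARD and RARB. Together these are 7 of the 29 (24.1%), against 23.1% of all genes tested.

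**Figure D2:**
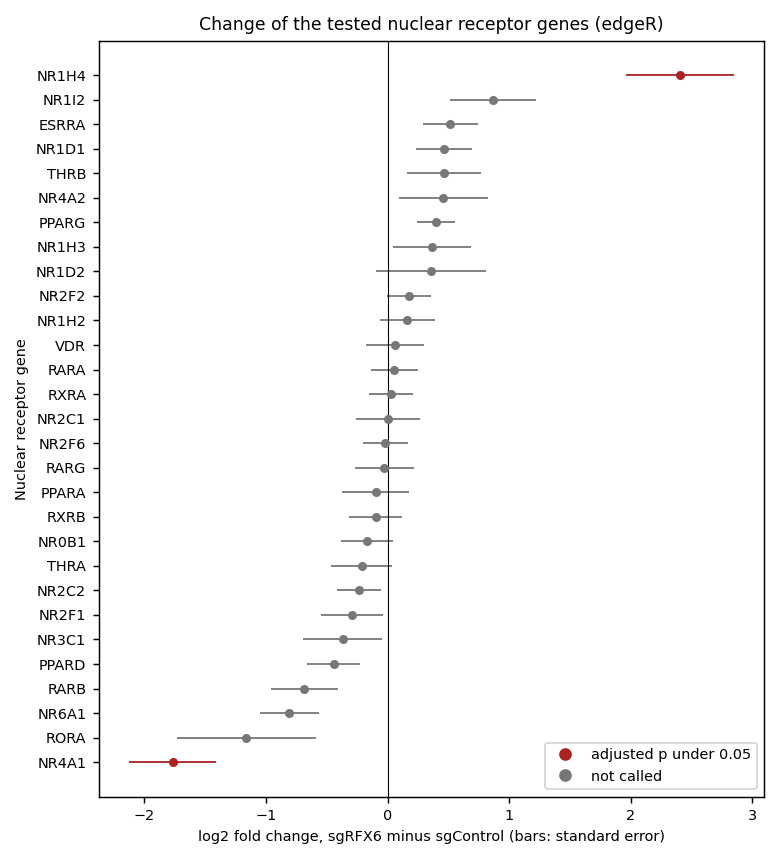
Log2 fold change of sgRFX6 over sgControl (points) with its standard error (bars) for the 29 tested receptors, red where the adjusted p was under 0.05. NR1H4 at 2.41 and NR4A1 at -1.77 lie farthest from 0, and 22 receptors lie within 0.5 of it.

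The other 8 receptors were too low to test, and no library held more than 16 counts of any of them. They were ESR1, ESRRG, NR0B2, NR1I3, NR3C2, NR4A3, NR5A2 and RXRG. Fitted without the filter on low counts, none of these 8 was called, and their edgeR adjusted p-values lay between 0.502 (NR3C2) and 0.956 (ESRRG). No difference was found in them at these counts, and smaller differences would not have been detectable at this depth.

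FXR, encoded by NR1H4, is the receptor for bile acids. It lowers bile acid synthesis through NR0B2 (SHP), a receptor without a DNA-binding domain that represses others, and NR5A2 (LRH-1) activates bile acid synthesis genes. FXR also raises the transporters that move bile acids out of the cell, among them SLC51B, the beta subunit of the basolateral exporter. The promoters of the 3 genes on which the called receptors and the FXR target turn are shown because the receptors of this family bind copies of the half-site AGGTCA. The sequences are from RefSeq on GRCh38.p14, are the 250 bases before each annotated start, read 5′ to 3′, and are in lower case with any AGGTCA or its reverse complement TGACCT in capitals.
NR1H4, chr12:100503110-100503359, plus strand: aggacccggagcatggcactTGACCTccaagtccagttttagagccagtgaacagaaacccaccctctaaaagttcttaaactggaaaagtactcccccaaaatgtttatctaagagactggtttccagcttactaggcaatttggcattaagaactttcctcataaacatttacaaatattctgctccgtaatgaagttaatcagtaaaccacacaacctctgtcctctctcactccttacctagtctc
SLC51B, chr15:65045137-65045386, plus strand: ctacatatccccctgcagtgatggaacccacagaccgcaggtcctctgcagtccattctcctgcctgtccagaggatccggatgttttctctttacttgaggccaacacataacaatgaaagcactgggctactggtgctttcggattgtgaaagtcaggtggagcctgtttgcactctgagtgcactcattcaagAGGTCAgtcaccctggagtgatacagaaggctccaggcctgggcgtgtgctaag
NR4A1, first start, chr12:52022582-52022831, plus strand: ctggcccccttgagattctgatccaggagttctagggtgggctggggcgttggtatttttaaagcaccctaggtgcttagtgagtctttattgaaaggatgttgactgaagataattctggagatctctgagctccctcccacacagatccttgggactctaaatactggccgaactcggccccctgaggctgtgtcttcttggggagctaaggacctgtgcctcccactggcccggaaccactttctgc
NR4A1, second start, chr12:52037465-52037714, plus strand: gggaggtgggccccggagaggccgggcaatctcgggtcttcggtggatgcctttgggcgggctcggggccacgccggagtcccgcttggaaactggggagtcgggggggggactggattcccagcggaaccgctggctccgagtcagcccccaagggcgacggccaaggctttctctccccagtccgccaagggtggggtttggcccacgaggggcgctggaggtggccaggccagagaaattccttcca

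The NR1H4 window held 1 match to the half-site, 225 bases before the start, and the SLC51B window held 1 match, 49 bases before the start. Neither NR4A1 window held one. On either strand, AGGTCA was found in 12.1% of 35116 promoter windows of this length. Counted per gene over all windows of a gene, it was found in 14.6% of 27305 genes and in 9 of the 33 receptors with a promoter entry (27.3%). The number of windows per gene was not matched, and these shares were not tested. None of the 4 windows shown held GTTGCC, the half-site of the X-box bound by RFX proteins, which was found in 10.2% of all windows, 12.3% of genes and 7 of the 33 receptors. They also held no TGACG, the half-site of the cyclic AMP response element, which was found in 21.2% of all windows, 24.9% of genes and 12 of the 33 receptors. A match is a stretch of letters and not a bound site, and the missing matches speak only of these windows. The start that RefSeq uses for NR1H4 lies inside the gene as GENCODE release 29 has it (chromosome 12, 100473708 to 100564413), whose first start is farther upstream.

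NR1H4 had 4, 5 and 3 counts in the sgControl libraries and 22, 12 and 22 counts in the sgRFX6 libraries. These were 0.193, 0.203 and 0.130 CPM against 1.09, 0.754 and 0.999 CPM. Every sgRFX6 library was above every sgControl library, and the gene was near the floor in the controls and low in both groups. The log2 fold change was 2.41 (SE 0.44, edgeR adjusted p = 0.0203), and the ratio of the summed counts, scaled for depth, was 5.51 with an exact 95% interval from 2.92 to 11.3 that covers counting error only. The two-sided exact permutation test of the CPM gave p = 0.1, the smallest that 3 against 3 libraries allow. The call was lost without sgControl library 1 (edgeR adjusted p = 0.0753), without sgControl library 3 (adjusted p = 0.105) and without sgRFX6 library 1 (adjusted p = 0.0937), while the log2 fold change stayed between 2.26 and 2.53 in all 6 fits that left out a library. Neighbouring genes on the chromosome, the 50 nearest tested, changed by a median of 0.25 on the log2 scale.

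The other members of the bile acid axis were barely present. NR0B2 had 3, 13 and 2 counts in sgControl, and each sgRFX6 library had 4. NR5A2 had 3, 6 and 2 counts against 2, 2 and 4. Both receptors overlapped between the groups.

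SLC51B stood at 0.771, 1.58 and 1.34 CPM in sgControl and at 6.51, 5.15 and 3.72 CPM in sgRFX6. All sgRFX6 libraries were above all sgControl libraries, by 2.05 on the log2 scale (SE 0.38, edgeR adjusted p = 0.0203). Without sgControl library 1 the adjusted p was 0.0625, without sgControl library 3 it was 0.0833, without sgRFX6 library 1 it was 0.0904 and without sgRFX6 library 2 it was 0.0572 by the same edgeR test. SLC51B was the 1 gene called among 10 tested of 13 genes of FXR, LRH-1 and bile acid handling (10%, against 3.74% of all genes). The median change of those 10 was 0.16. SLC51A, which encodes the other subunit of the exporter, stood between 0.561 and 0.729 CPM in sgControl and between 0.591 and 0.880 CPM in sgRFX6 (log2 fold change 0.16, edgeR adjusted p = 0.911). The bile acid uptake carrier SLCO1B3, named after its values were seen, had 5, 0 and 3 counts against 17, 15 and 29 and lay just past the threshold (edgeR adjusted p = 0.0530). CYP27A1, an enzyme of the alternative route of bile acid synthesis, was at 63.8, 83.8 and 64.8 CPM against 49.1, 52.0 and 33.2 CPM, without overlap and without a call (edgeR adjusted p = 0.173).

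NR4A1, NR4A2 and NR4A3 encode Nur77, Nurr1 and NOR1, receptors that act without a known classical ligand and that many cells induce within minutes of a stimulus. NR4A1 was counted 513, 355 and 324 times in sgControl, against 149, 56 and 102 times in sgRFX6. These were 24.7, 14.4 and 14.0 CPM against 7.4, 3.52 and 4.63 CPM. The groups were fully separated, with the sgRFX6 libraries on the lower side and sgControl library 1 the highest of all. The log2 fold change was -1.77 (SE 0.36, edgeR adjusted p = 0.0296), which is a fitted level 3.40-fold lower in sgRFX6. In bulk RNA, fewer cells that use a gene and less RNA per cell cannot be told apart.

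The NR4A1 call held in 1 of the 6 fits that left out a library, the one without sgRFX6 library 1 (edgeR adjusted p = 0.0380). It was lost without sgControl library 1 (adjusted p = 0.0870), 2 (0.0545) or 3 (0.0687) and without sgRFX6 library 2 (0.0862) or 3 (0.0543). The log2 fold change lay between -2.11 and -1.45 in these 6 fits.

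NR4A2, the closest relative by name, stood at 0.916, 1.22 and 1.12 CPM in sgControl and at 1.59, 1.01 and 1.86 CPM in sgRFX6. The groups overlapped, and the log2 fold change of 0.46 was not called (SE 0.36, edgeR adjusted p = 0.632). NR4A3 had at most 6 counts in any library.

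Other immediate early genes are known to respond to the same stimuli as NR4A1. Of 14 such genes, 13 were tested, with a median log2 fold change of -0.04. EdgeR called 0, against 3.74% of all genes, and 0 had an unadjusted p under 0.05, against 15.6%. The difference from these shares was not tested. DESeq2 called 1 of the 27 tested immediate early and clock genes, against 6.97% of all genes, and limma-voom with sample quality weights called 7, against 31.1%. EGR1 was at 62.0 CPM in sgControl library 1, the library in which NR4A1 was highest, and between 10.7 and 26.5 CPM in the other 5 libraries. FOS stood between 6.17 and 14.3 CPM in sgControl and between 7.13 and 11.4 CPM in sgRFX6. The growth regulator MYC did not overlap between the groups, at 510.2 to 579 CPM against 360 to 455 CPM, and was not called (edgeR adjusted p = 0.322).

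**Figure D3:**
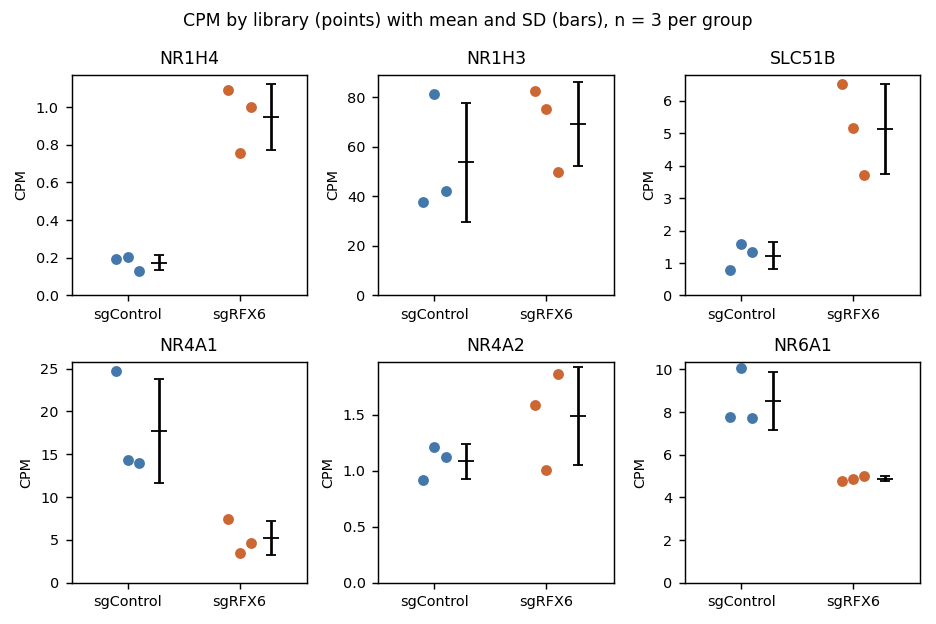
CPM in each library (points, n = 3 per group), with the mean and SD of each group as a bar beside them, for NR1H4 and its paralogue NR1H3, the FXR target SLC51B, NR4A1 and its paralogue NR4A2, and NR6A1. The groups are separated for NR1H4, SLC51B, NR4A1 and NR6A1, and they overlap for NR1H3 and NR4A2.

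NR1I2 and NR1I3 encode PXR and CAR, which sense drugs and other foreign compounds and induce the enzymes that clear them. NR1I2 stood at 3.47, 7.86 and 4.23 CPM in sgControl and at 11.7, 7.67 and 9.08 CPM in sgRFX6. Its groups overlapped through sgControl library 2, and the log2 fold change of 0.87 (SE 0.35) was not called (edgeR adjusted p = 0.270). Without sgControl library 2 and sgRFX6 library 3 it was 1.34 and was called (edgeR adjusted p = 0.00908). That fit was chosen after seeing the data, keeps only 2 libraries per group and called 25.2% of all genes. It leaves out the very library through which the groups overlapped. These limits hold wherever that fit is given below. NR1I3 had between 3 and 12 counts per library, and the groups overlapped.

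Among 15 targets of PXR and CAR, 9 were tested, and the median change was 0.60. By edgeR 1 was called higher and 0 lower (11.1%, against 3.74% of all genes). The 1 that rose was UGT1A1, the enzyme that conjugates bilirubin, at 33.6, 54.3 and 39.3 CPM against 135, 157 and 158 CPM. This was a log2 fold change of 1.82 (SE 0.21, edgeR adjusted p = 0.00288), and the call held in all 15 alternatives. UGT1A1 shares its later exons with the other UGT1A genes, so the counts given to it are uncertain. The classical targets CYP3A4 and CYP2C8 were at or near the floor in every library. The drug efflux pump ABCB1, named after its values were seen, was at 14.3, 13.6 and 8.76 CPM against 27.0, 19.9 and 40.8 CPM and was not called (edgeR adjusted p = 0.0742).

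The lipid-sensing receptors comprised the 3 peroxisome proliferator-activated receptors, which bind fatty acids, and the 2 liver X receptors, which bind oxysterols. All 5 were tested and none was called by the main edgeR test. PPARG, best known for fat cell formation, was at 60.2, 70.9 and 66.2 CPM in sgControl and at 88.2, 84.6 and 87.2 CPM in sgRFX6. Its groups were tight and did not overlap, but the log2 fold change of 0.40 (SE 0.16) missed the threshold (edgeR adjusted p = 0.253). PPARD, which is found in most tissues, was at 23.1, 26.9 and 23.4 CPM against 20.3, 19.2 and 14.6 CPM, also without overlap (log2 fold change -0.44, edgeR adjusted p = 0.390). PPARA, the main fatty acid receptor of the liver, was between 33.8 and 67.8 CPM in sgControl, the highest in library 2, and between 39.6 and 45.2 CPM in sgRFX6 (log2 fold change -0.10, edgeR adjusted p = 0.929), and its change was 0.27 without sgControl library 2 and sgRFX6 library 3 (edgeR adjusted p = 0.203).

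NR1H3 (LXR alpha), the paralogue of NR1H4, was at 37.7, 81.2 and 42.2 CPM in sgControl and at 82.5, 75.2 and 49.9 CPM in sgRFX6. The groups overlapped because sgControl library 2 was high, and the log2 fold change was 0.37 (SE 0.32, edgeR adjusted p = 0.680). Without sgControl library 2 and sgRFX6 library 3 it was 0.98 (edgeR adjusted p = 0.00165). This choice, made after seeing the data, removes the high control, and the fit called 25.2% of all genes. NR1H2 (LXR beta) was between 126 and 157 CPM in sgControl and between 108 and 190 CPM in sgRFX6 (log2 fold change 0.16, edgeR adjusted p = 0.827). Without those libraries its change was 0.46 (edgeR adjusted p = 0.0198).

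Of 12 LXR targets 9 were tested and 0 were called, against 3.74% of all genes. The median log2 fold change of the 9 was -0.03, with 4 positive and 5 negative. None had an unadjusted p under 0.05, against 15.6% of all genes. The cholesterol exporter ABCG1 ranged from 3.04 to 12.7 CPM in sgControl and from 6.85 to 18.8 CPM in sgRFX6, overlapping through sgControl library 2. Its log2 fold change was 0.98 (edgeR adjusted p = 0.490) and, without sgControl library 2 and sgRFX6 library 3, 2.0 (edgeR adjusted p = 0.0105). The latter fit, chosen after seeing the data, called 25.2% of all genes. The fatty acid enzymes SCD and FASN overlapped between the groups (log2 fold changes -0.27 and -0.18). Of 20 PPAR targets 18 were tested, with a median of 0.00, and 1 was called, higher in sgRFX6 (5.56%, against 3.74% of all genes). That was VNN1, which releases the vitamin pantothenate from pantetheine, at 14.5, 12.1 and 14.4 CPM against 44.2, 52.2 and 83.5 CPM (log2 fold change 2.14, SE 0.27, edgeR adjusted p = 0.00401). The call held in all 15 alternatives. CPT1A, the enzyme that admits fatty acids to mitochondrial oxidation and named after its values were seen, did not overlap between the groups and was not called. It was between 197 and 230 CPM against 279 to 361 CPM (edgeR adjusted p = 0.0973).

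The retinoid receptors comprised the RARs, which bind retinoic acid, and the RXRs, the shared partners of many other receptors. Of 6, 5 were tested and none was called by the main edgeR test. RXRA, the main RXR of the liver, was between 224 and 257 CPM in sgControl and between 196 and 285 CPM in sgRFX6, with a log2 fold change of 0.03. RXRB overlapped as well, at a log2 fold change of -0.10, and RXRG had 2 counts in all 6 libraries together. RARB, itself a known target of retinoic acid, was at 19.3, 24.7 and 18.6 CPM in sgControl and at 11.9, 9.62 and 17.4 CPM in sgRFX6. The groups did not overlap, although sgRFX6 library 3 lay close to the controls, and the change of -0.68 (SE 0.27) was not called (edgeR adjusted p = 0.265). It was -0.81 and called without that library and sgControl library 2 (edgeR adjusted p = 0.0153), in the fit chosen after seeing the data. That fit called 25.2% of all genes. RARA and RARG had log2 fold changes of 0.06 and -0.03.

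Of 11 retinoic acid targets 7 were tested and 1 was called, lower in sgRFX6 (14.3%, against 3.74% of all genes). STRA6, the cell surface receptor for retinol-binding protein, was at 34.9, 114 and 34.6 CPM in sgControl and at 13.0, 7.16 and 6.68 CPM in sgRFX6. Its log2 fold change was -2.77 (SE 0.52, edgeR adjusted p = 0.0213). Without sgControl library 2, in which it was far higher than in the other controls, the change was -1.96 (edgeR adjusted p = 0.0298). The call was lost without sgRFX6 library 2 (edgeR adjusted p = 0.0712) and without sgRFX6 library 3 (0.0544). RARRES3, named after its values were seen, was between 0.777 and 2.31 CPM in sgControl and between 3.23 and 5.28 CPM in sgRFX6 (log2 fold change 1.71, edgeR adjusted p = 0.0890).

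VDR, THRA and THRB bind vitamin D and thyroid hormone, and NR3C1, NR3C2 and ESR1 encode the glucocorticoid, mineralocorticoid and estrogen receptors. The 4 that could be tested overlapped between the groups, and their log2 fold changes lay between -0.37 and 0.46. VDR was between 15.7 and 22.1 CPM in sgControl and between 16.9 and 23.6 CPM in sgRFX6. NR3C1 was at 42.5, 36.0 and 33.0 CPM against 23.9, 18.0 and 44.2 CPM, so that sgRFX6 library 3 lay above all controls and the other sgRFX6 libraries below them. Its change was -0.37 (edgeR adjusted p = 0.680) and, without sgControl library 2 and sgRFX6 library 3, -0.84 (edgeR adjusted p = 0.0154). The latter fit, chosen after seeing the data, called 25.2% of all genes. THRB was between 12.5 and 17.4 CPM in sgControl and between 13.6 and 28.2 CPM in sgRFX6, again highest in library 3.

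Of 12 glucocorticoid targets 10 were tested, with a median of -0.08, and 1 was called, lower in sgRFX6 (10%, against 3.74% of all genes). SGK1, a kinase that regulates ion transport, was at 38.6, 25.6 and 26.3 CPM against 9.39, 6.54 and 10.1 CPM (log2 fold change -1.79, SE 0.27, edgeR adjusted p = 0.00894), a call that held in all 15 alternatives. The common reporters of glucocorticoid action FKBP5 and TSC22D3 overlapped between the groups. CYP24A1, which breaks down active vitamin D and was named after its values were seen, was at 30.3, 59.5 and 17.0 CPM against 15.3, 5.53 and 8.72 CPM (log2 fold change -1.85, edgeR adjusted p = 0.0922). It belonged to a list of 6 targets of other receptors, of which 5 were tested and 0 were called by edgeR, against 3.74% of all genes. An unadjusted p under 0.05 was found for 2 of the 5, against 15.6% of all genes.

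**Figure D4:**
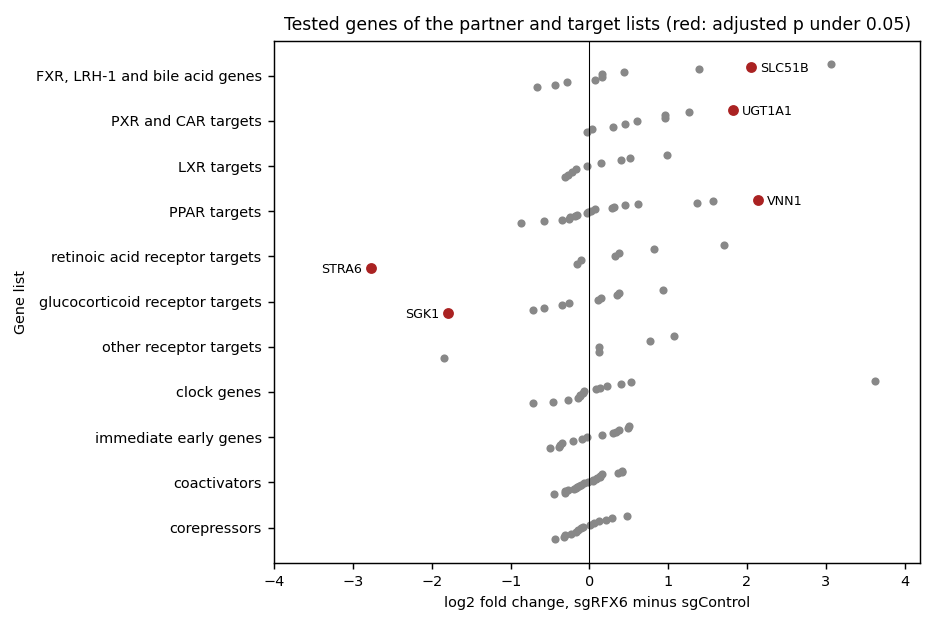
Log2 fold changes of sgRFX6 over sgControl for every tested gene, 1 point each, of the lists of receptor partners, receptor targets, clock genes and immediate early genes, red where the adjusted p was under 0.05. The called target genes SLC51B, UGT1A1 and VNN1 lie at 2.05, 1.82 and 2.14, SGK1 and STRA6 lie at -1.79 and -2.77, and no coactivator or corepressor is red.

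NR1D1, NR1D2 and RORA connect metabolism with the circadian clock: the NR1D receptors (REV-ERB alpha and beta) repress the clock gene ARNTL, and RORA activates it. NR1D1 was at 17.2, 19.2 and 16.7 CPM in sgControl and at 28.1, 26.7 and 18.5 CPM in sgRFX6, overlapping through sgRFX6 library 3 (log2 fold change 0.47, SE 0.23, edgeR adjusted p = 0.392). NR1D1 and THRA lie on opposite strands of chromosome 17 and share 1081 bases (40092787 to 40093867 on GRCh38). The strand setting of the counting is not given in the sources used here, so reads in the shared stretch may have gone to either. The same doubt holds for the levels of other receptors that overlap a gene on the opposite strand. Among these are NR2C2 with MRPS25 (11141 bases), NR1H2 with NAPSA (7354), THRA with MED24 (2926), NR1H3 with ACP2 (607) and ESRRA with TRMT112 (284). All of NR0B2 (2478 bases) overlaps NUDC. THRA had a log2 fold change of -0.21, which turned to 0.20 without sgControl library 2 and sgRFX6 library 3. NR1D2 was between 19.2 and 34.2 CPM in sgControl, but at 22.3, 16.8 and 58.2 CPM in sgRFX6, where library 3 alone was high. Its log2 fold change was 0.36 (edgeR adjusted p = 0.800) and turned to -0.53 without sgControl library 2 and sgRFX6 library 3 (edgeR adjusted p = 0.114). Without those libraries, left out after seeing the data, NR1D1 was called at 0.69 (edgeR adjusted p = 0.0144), as were 25.2% of all genes. RORA was low, between 0.389 and 1.01 CPM in sgControl and between 0.126 and 0.50 CPM in sgRFX6 (log2 fold change -1.16, SE 0.57, edgeR adjusted p = 0.386).

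Of 15 other clock genes 14 were tested and 0 were called by edgeR, against 3.74% of all genes. An unadjusted p under 0.05 was found for 2 of them, against 15.6% of all genes. ARNTL was between 6.12 and 9.11 CPM in sgControl and between 8.13 and 9.24 CPM in sgRFX6. BHLHE41, a clock repressor named after its values were seen, had 0, 0 and 4 counts against 14, 12 and 20 (edgeR adjusted p = 0.0530).

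The remaining receptors have no established natural ligand, or act mainly as repressors. ESRRA, which drives mitochondrial genes, was at 86.7, 94.5 and 101 CPM in sgControl and at 145, 167 and 92.7 CPM in sgRFX6. Libraries 1 and 2 of sgRFX6 were above all controls and library 3 was among them. Its log2 fold change was 0.52 (SE 0.23, edgeR adjusted p = 0.315) with all libraries and 0.73 without sgRFX6 library 3, where it was called (edgeR adjusted p = 0.0293). NR6A1 (GCNF), which silences genes of the pluripotent state, was at 7.76, 10.1 and 7.73 CPM in sgControl and at 4.77, 4.84 and 5.0 CPM in sgRFX6. The groups did not overlap and the sgRFX6 libraries nearly coincided, yet the change of -0.81 (SE 0.24) missed the threshold (edgeR adjusted p = 0.130). NR2F2 (COUP-TFII) was at 31.6, 29.5 and 34.1 CPM against 35.9, 34.3 and 37.3 CPM, a change of 0.17 (edgeR adjusted p = 0.744). The COUP-TF relatives NR2F1 and NR2F6, the testicular receptors NR2C1 and NR2C2, and NR0B1 (DAX1), a repressor of steroid hormone synthesis, all overlapped between the groups, with log2 fold changes between -0.29 and 0.01.

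Compared per length of exon, the most abundant of the 37 listed receptors in sgControl were NR2F6 at 56.9, NR0B1 at 50.8, NR1H2 at 37.4, ESRRA at 31.1 and RXRA at 21.6 CPM per kilobase. The same 5 were at the top in sgRFX6, with NR1H2 and ESRRA in the other order. NR2F6 lay between 54.8 and 59.2 and NR0B1 between 44.9 and 54.9 CPM per kilobase in sgControl. Their ranges across libraries overlapped in both groups, but within every library NR2F6 was above NR0B1. NR1H2 and ESRRA lay between 33.6 and 41.9 and between 28.6 and 33.5 CPM per kilobase in sgControl. Their ranges were parted by a small gap there and overlapped in sgRFX6. Within every library NR1H2 was above ESRRA in sgControl and below it in sgRFX6. These orders were not tested. NR4A1 moved from the 23rd to the 25th place, and NR1H4 from the 30th to the 28th, at 0.0482 and 0.262 CPM per kilobase. The lowest places were held by RXRG and ESRRG in both groups.

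Receptors act through shared partners, and these were also examined. Of 22 coactivators 21 were tested and of 14 corepressors all 14. EdgeR called 0 of these 35, against 3.74% of all genes. By unadjusted p, 1 of the 35 was under 0.05, against 15.6% of all genes. It was NCOA4, a coactivator also known for ferritin turnover, at a log2 fold change of -0.45 (edgeR adjusted p = 0.286). Limma-voom with sample quality weights called 5 of the 35, against 31.1% of all genes. All 35 had changes smaller than 0.5 on the log2 scale. PPARGC1A, the coactivator that in liver drives fasting genes, had 1 count in all 6 libraries together. Over all 68 tested target genes of the receptors, 3 were higher and 2 lower in sgRFX6, which is 7.35% against 3.74% of all genes tested.

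The spread within groups was wide for many receptors. The coefficient of variation over the 3 libraries had a median of 15.9% in sgControl (3.85 to 45.2%) and 21.7% in sgRFX6 (2.15 to 69.3%). The sgControl library 2 was the highest of its group for 19 of the 29 tested receptors. The sgRFX6 library 3 was the highest for 10 and the lowest for 12, with a median deviation of 0.36 on the log2 scale.

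How many receptors were called depended on how these libraries were treated. With sgControl library 2 and sgRFX6 library 3 left out together, a choice made after seeing the data, 12 of 28 receptors were called, against 25.2% of all genes. Of these, 7 were higher and 5 lower, against 13.7% and 11.5% of all genes. Limma-voom with sample quality weights, which gives a deviating library less weight, called the same 12 of 29, against 31.1% of all genes (18.1% higher and 13% lower). They were ESRRA, NR1D1, NR1H2, NR1H3, NR1H4, NR1I2 and PPARG on the higher side and NR2C2, NR3C1, NR4A1, NR6A1 and RARB on the lower side. A correction for GC content, also added after seeing the data, called 6 receptors, against 11.3% of all genes (6.08% higher and 5.18% lower). These were ESRRA, NR1D1 and NR1H4 on the higher side and NR4A1, NR6A1 and RARB on the lower side. NR1H4 and NR4A1 were called in each of these 3 fits. Between the main fit and the fit without those libraries, the direction turned for 7 of the 28 receptors in both. These were NR1D2, NR2C1, NR2F6, PPARA, RARG, RXRB and THRA, none of which was called in either fit. In the main fit, the 50 nearest tested genes changed by a median of 0.57 around NR1I2, 0.42 around ESRRA and 0.32 around NR1H3. Around NR3C1 that median was -0.42. The main changes of these receptors themselves were 0.87, 0.52, 0.37 and -0.37. Around the other receptors called in the 3 fits above, the median lay between -0.09 and 0.25. The part of these regions in the receptor changes was not tested.

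Under the remaining settings 0 to 2 receptors were called. NR1H4 and NR4A1, and no other receptor, were called with RLE factors (3.77% of all genes called), library size only (3.72%), DESeq2 (6.97%), no filter on low counts (3.26%) and the replicate number as a block (5.05%). The stricter filter called NR4A1 (3.69% of all genes) and left NR1H4 untested. Without sgControl library 1 or 3, 0 receptors were called by edgeR, against 2.34% and 1.62% of all genes. Without sgControl library 2 (3.05% of all genes) or sgRFX6 library 2 (2.32%) the 1 receptor called was NR1H4, and without sgRFX6 library 1 (1.66%) it was NR4A1. Without sgRFX6 library 3, NR1H4 and ESRRA were called, against 5.52% of all genes.

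**Figure D5:**
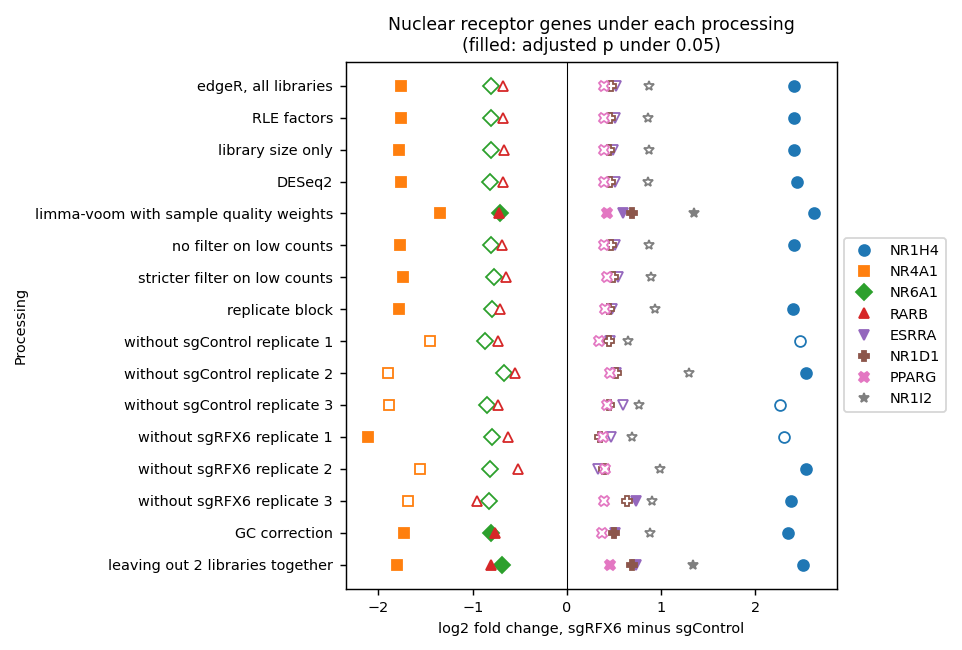
Log2 fold changes of sgRFX6 over sgControl (horizontal axis) of 8 receptors under the main edgeR fit and its 15 alternatives (rows), with filled points where the adjusted p was under 0.05. NR1H4 stays above 2.2 and NR4A1 below -1.3 in every fit that tested them, and the other 6 are filled only in some fits.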

How the data were processed

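RNA from 3 sgControl and 3 sgRFX6 Hep3B libraries was isolated with Trizol for Illumina sequencing. The authors deposited 1 table of raw read counts with 16721 rows. The submitters' processing notes name GRCh38 (hg38), and the aligner, the counting program and the annotation are not given in the sources used here. Columns were assigned by name, and the control columns, which name no guide, were taken as sgControl, the only control group. The 1 row that names no gene, with up to 9.17e-05% of the reads of a library, was dropped.

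The analysis used edgeR 4.0.16 (R 4.3.3). Low genes were removed with filterByExpr (minimum count 10, minimum total 15), and the rest were scaled by TMM and tested with the quasi-likelihood test without covariates, with Benjamini-Hochberg adjustment over all 12839 genes tested and a threshold of 0.05 (common biological coefficient of variation 0.269). GENCODE release 29 on GRCh38 gave positions, exon lengths and GC content, and matched 15422 row names and left 1299 unmatched. GC content was available for 12001 tested genes (93.5%). Promoter windows came from RefSeq on GRCh38.p14.

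The receptors, the gene lists and the tests were chosen with earlier results of these data known, and the lists were written from general knowledge. Full values were given for receptors called by the main test and for 1 paralogue of each, for RFX6 and for called genes of the other lists. Other genes printed with values were chosen after these were seen. The alternatives were DESeq2 1.42.0, limma-voom (limma 3.58.1) with sample quality weights, RLE factors, scaling by library size only, other filters, the replicate number as a block and each library left out. The GC correction (smooth trend with span 0.3 passed as offsets) and the fit without 2 libraries were added after seeing the data. The deviations of same-numbered libraries correlated at -0.41, 0.17 and -0.09. With so few libraries, this cannot show whether those with the same number were prepared together. The fit was tested on simulated data with the same spread for all genes and known changes only in genes well above the floor. Those data do not show how the fit treats a gene as low as NR1H4. The depth of 16730386 to 25070793 counts per library put 3 counts at 0.122 to 0.189 CPM. Intervals and floors cover counting error only, since PCR copies are not independent molecules.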

Additional observations from a re-analysis of the deposited data

How the results depend on the processing

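NR1H4 kept its direction in all 14 alternatives that tested it and its call in 11, and NR4A1 kept its direction in all 15 and its call in 10. NR1H4 gave no value under the stricter filter, which needs 1 CPM in 3 libraries. The number of receptors called, 2 in the main test, was 1 under the stricter filter, 12 with limma-voom and sample quality weights, 6 with the GC correction, 12 without sgControl library 2 and sgRFX6 library 3, and between 0 and 2 when each library was left out in turn. It was 0 without sgControl library 1 or 3.

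Over all genes, 480 (3.74%) were called in the main test, 895 (6.97%) by DESeq2 and 3998 (31.1%) by limma-voom. With the GC correction 1352 (11.3%) were called, and without the 2 libraries 3238 (25.2%). When each library was left out, 212 (1.62%, sgControl library 3 left out) to 718 (5.52%, sgRFX6 library 3 left out) were called. RFX6 passed the threshold with limma-voom (-0.96), with the GC correction (-0.85) and without the 2 libraries (-0.87), and not when single libraries were left out (-0.89 to -0.67). Of 35 coregulators tested in the main fit, 0 were called there and 0 when each library was left out. The numbers with limma-voom, the GC correction and without the 2 libraries were 5, 1 and 6, against 31.1%, 11.3% and 25.2% of all genes. Of 68 receptor targets tested in the main fit, 5 were called there and 3 to 8 when each library was left out. The numbers with DESeq2, limma-voom, the GC correction and without the 2 libraries were 12, 35, 14 and 24. All genes were called at 6.97%, 31.1%, 11.3% and 25.2% under these settings. Of 27 clock and immediate early genes tested in the main fit, 0 were called there and 0 to 1 when each library was left out. Under the 4 settings just named, in the same order, the numbers were 1, 7, 1 and 4, beside the same shares of all genes. Without the filter the number was 1, against 3.26% of all genes. The causes of these moves were not tested.

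With the replicate number as a block, 10 receptor targets, 1 clock or immediate early gene and 648 genes in all (5.05%) were called. The receptors called stayed NR1H4 and NR4A1. The libraries are known to share only a number, so this is not read as a paired result. Depth limits the 8 untested receptors, NR1H4 and RORA most.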
